A study of Mus musculus with 103 samples.

Results

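Mitochondrially encoded transcripts were followed in muscle stem cells of C57BL/6 mice at 3 ages. The members were every entry with an Ensembl gene ID whose symbol begins with mt-. There were 37 of them among 43283 Ensembl genes in the bulk table, and the same 37 among 43282 in the table of single-cell wells. They comprised 22 tRNAs, 2 rRNAs and 13 mRNAs, the full set of genes of the mitochondrial genome. In bulk, 8 libraries were made: 3 of young mice, 2 of mice in middle age (12 and 13 months) and 3 of old mice (24 months). For the young libraries the labels give 3 months in one field and 2 months in another. The wells came from 1 mouse of 3 months (64 wells) and 1 mouse of 24 months (31 wells). All samples are labelled untreated and carry no named allele. The labels give muscle stem cells as the source, the design text says myoblasts, and a culture step is described with no word on its place relative to RNA isolation. All 10 muscle stem cell marker genes looked up were above 0 in all 8 bulk libraries, with a summed level of 1421 to 2636 TPM.

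Mitochondria keep a small circular genome of their own. Both strands are copied into long precursor RNAs, and the tRNAs that lie between most of the other genes are cut out, which frees the rRNAs and mRNAs. The rRNAs build the mitochondrial ribosome, and the mRNAs encode core subunits of complexes I, III, IV and V of oxidative phosphorylation, whose remaining subunits come from nuclear genes. Muscle stem cells at rest have few mitochondria, and their metabolism changes as they activate. Copies of mitochondrial DNA also lie in the nuclear chromosomes, and reads that fit both places cannot be assigned to one by sequence alone.

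Values are TPM, a transcript abundance per length that sums to the same total in each library. Shares are percentages of the TPM that are not from ERCC spike-in RNAs. TPM keep no read depth, so the precision of a bulk value rests on the spread between libraries. In bulk RNA, fewer mitochondria, fewer cells with many mitochondria and fewer transcripts per mitochondrion cannot be told apart.

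The 22 tRNA genes, the adaptors that bring amino acids to the ribosome, were listed at 0 in all 8 bulk libraries. They were also listed at 0 in all 95 wells. Their annotated lengths ran from 59 to 75 bases and the reads were 75 bases long, so 21 of the 22 genes are shorter than a read and 1 is as long. The longest and the shortest are printed here to show that span.
mt-Tl1, chrM:2676-2750, plus strand: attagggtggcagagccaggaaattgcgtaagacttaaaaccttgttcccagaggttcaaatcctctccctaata
mt-Ts2, chrM:11613-11671, plus strand: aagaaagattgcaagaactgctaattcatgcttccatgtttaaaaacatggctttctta
The zeros therefore give no level for the tRNAs at any age, and the shares that follow hold rRNA and mRNA alone.

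Mitochondrial RNA made up at least 32.7% of every bulk library. The share was 37.7%, 38.6% and 39.9% in the young libraries. It was 32.7% and 42.2% in the middle-aged libraries, and 46.5%, 35.3% and 37.1% in the old ones. The young libraries lay close together, while the middle-aged and old libraries spread to both sides of them. The group means were 38.7% ± 1.09 (SD, n = 3) for young and 39.6% ± 6.03 (SD, n = 3) for old. They did not differ beyond the spread (exact two-sided permutation test, p = 1, Benjamini-Hochberg p = 1 over 14 share tests). With 3 libraries against 3 this test cannot go below 0.1, and with 2 against 3 it cannot go below 0.2. The sign of the old minus young difference rested on the library old 1: it was 0.892 percentage points with that library and -2.55 without it.

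**Figure D1:**
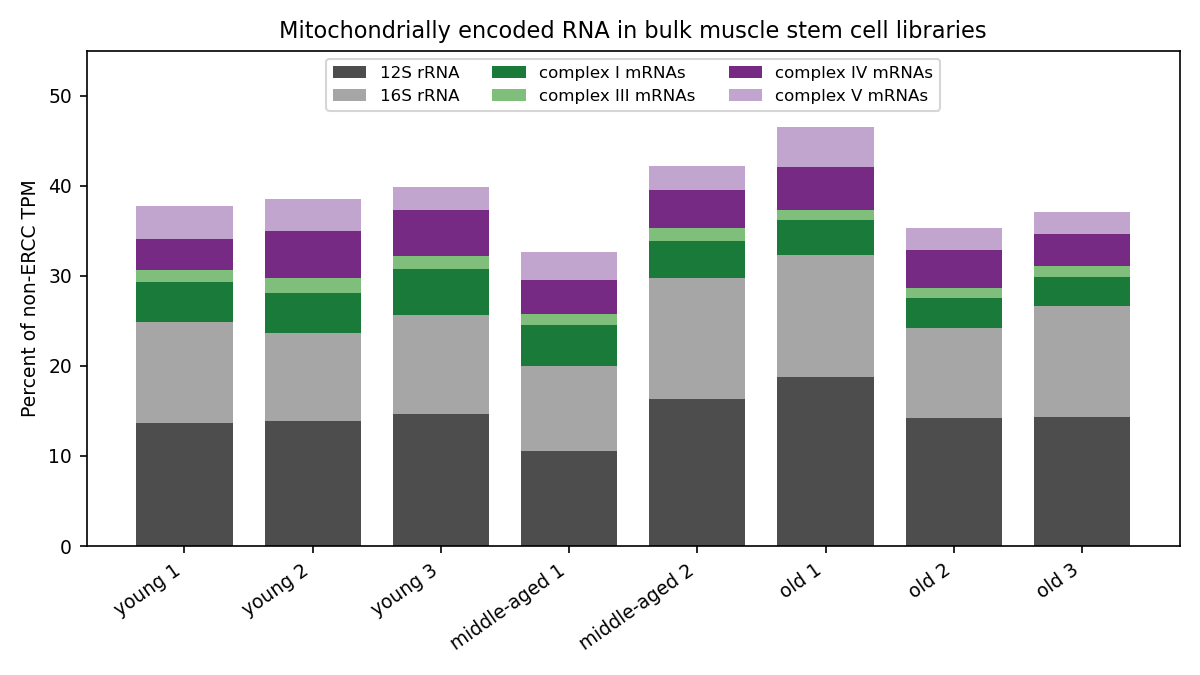
Share of non-ERCC TPM (y axis, percent) taken by the 2 rRNAs and by the mRNAs of each complex in the 8 bulk libraries (x axis), as stacked bars. Old 1 reaches 46.5% and middle-aged 1 reaches 32.7%, and rRNA forms the larger part of every bar.

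The 2 rRNAs carried most of this RNA. mt-Rnr1, the 12S rRNA of the small ribosomal subunit (chrM:70-1024), was listed at 137014, 138468 and 146549 TPM in the young libraries and at 187180, 142463 and 143047 TPM in the old ones. mt-Rnr2, the 16S rRNA of the large subunit (chrM:1094-2675), stood at 111412, 98432 and 110281 TPM in young and at 135976, 99308 and 122989 TPM in old libraries. Both genes were highest in old 1 and lowest in middle-aged 1, with 105885 and 93525 TPM, and the young and old groups overlapped for both. Their fitted differences were 0.15 for each gene on the log2(TPM + 1) scale (SE 0.26 and 0.25), with adjusted p of 0.934 and 0.928 in limma. The rRNA share was 24.7% ± 1.00 in young, 24.8% ± 6.93 in middle-aged and 27.7% ± 4.18 in old libraries (SD, n = 3, 2 and 3; exact permutation p = 0.3 for old against young). Without old 1 the old minus young difference in rRNA share went from 2.96 to 0.652 percentage points, and without old 2 it was 4.72. The ratio of 12S to 16S TPM was 1.32 ± 0.0887 in young and 1.32 ± 0.143 in old libraries (SD, n = 3 each).

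The 13 mRNAs together held 12.9%, 14.9% and 14.2% of non-ERCC TPM in young libraries. They held 12.7% and 12.5% in middle-aged and 14.2%, 11.1% and 10.5% in old libraries. The old mean was 2.07 percentage points below the young mean, with overlapping groups (exact permutation p = 0.2, Benjamini-Hochberg p = 0.7). Without old 1 the difference was -3.20 points, without old 3 it was -1.36.

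By complex, the 7 complex I mRNAs took a smaller share in every old library than in any young one. Their summed share was 4.46%, 4.37% and 5.10% in young and 3.85%, 3.36% and 3.22% in old libraries, means of 4.64% ± 0.397 and 3.47% ± 0.331 (SD, n = 3 each). The share of mt-Cytb, which encodes cytochrome b and is the only mitochondrial mRNA of complex III, was 1.38%, 1.71% and 1.44% in young and 1.19%, 1.10% and 1.24% in old libraries. For complexes I and III the groups did not overlap, and both tests stood at the smallest value they can give (exact permutation p = 0.1, Benjamini-Hochberg p = 0.7). Of single genes averaging 1 TPM or more, 4.16% had all old libraries below all young ones. Among 100 other genes averaging 500 TPM or more it was 19%. The shares of complex IV (4.60% ± 0.989 in young, 4.18% ± 0.604 in old) and complex V (3.24% ± 0.577 and 3.09% ± 1.12) overlapped (SD, n = 3 each). The complex V difference of -0.147 points changed sign when any of 4 libraries was left out, to 0.202 without old 2, 0.152 without old 3, 0.0353 without young 1 and 0.00373 without young 2. The complex IV difference of -0.421 points went to -0.101 without young 2, -0.107 without old 3 and -0.171 without young 3, and to -0.991 without young 1 and -0.710 without old 1.

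The balance of mRNA to rRNA separated the old from the young libraries, a quantity chosen after its values were seen and therefore given without a test. For 1 TPM of rRNA there were 0.519, 0.628 and 0.554 TPM of mRNA in young libraries and 0.439, 0.459 and 0.395 in old ones. All old libraries lay below all young ones. The middle-aged libraries took both sides, at 0.638 for middle-aged 1 and 0.419 for middle-aged 2. As a share of all mitochondrial RNA, mRNA was 36.1% ± 2.23 in young and 30.1% ± 1.61 in old libraries (SD, n = 3 each).

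Several mRNA genes overlap each other or a near-identical nuclear sequence, and this bears on how single genes can be read. mt-Atp8 and mt-Atp6, both subunits of the proton channel of ATP synthase, share 43 bases, printed in capitals in chrM:7907-7989 (mm10, plus strand).
mt-Atp8 into mt-Atp6: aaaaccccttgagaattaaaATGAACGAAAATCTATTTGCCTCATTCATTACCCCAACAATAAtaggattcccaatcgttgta
mt-Nd4l and mt-Nd4, both complex I subunits, share 7 bases, and mt-Nd5 overlaps mt-Nd6 on the opposite strand by 14 bases. Whether counting used strand is not given in the sources used here, so reads in that stretch cannot be placed on one of the 2 genes. Without strand, RNA of the opposite strand over the rest of mt-Nd6 would also be counted as mt-Nd6.

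Of 20 nuclear gene models that matched a mitochondrial gene, 7 were close copies, with at least 99% identity over at least 95% of the model. They are annotated as pseudogenes and sit in one block of 4663 bases on the minus strand, chr1:24611535-24616197 in mm10. In the order of their mitochondrial counterparts they are Gm29216 (the end of mt-Co1), Gm28661 (mt-Co2), Gm10925 (mt-Atp6), Gm28437 (mt-Co3), Gm28438 (mt-Nd3), Gm10222 (mt-Nd4l) and Gm28439 (the first part of mt-Nd4). Over the aligned bases 5 of the 7 are identical to the mitochondrial gene. Gm28438 carries 1 substitution, T3C, and Gm29216 carries A1066T, each written with the mitochondrial base first and counted from the first base of the mitochondrial gene. The pairs below show how little a 75-base read has to go by, with the differing base in capitals and the mt-Co3 pair without any.
mt-Co3, chrM:9330-9389, plus strand: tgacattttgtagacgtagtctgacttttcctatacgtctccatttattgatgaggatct
Gm28437, chr1:24613189-24613248, minus strand: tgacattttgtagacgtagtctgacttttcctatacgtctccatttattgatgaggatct
mt-Nd3, chrM:9459-9518, plus strand: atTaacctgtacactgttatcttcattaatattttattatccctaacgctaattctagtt
Gm28438, chr1:24613060-24613119, minus strand: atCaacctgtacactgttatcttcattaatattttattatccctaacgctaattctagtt
mt-Co1, chrM:6390-6449, plus strand: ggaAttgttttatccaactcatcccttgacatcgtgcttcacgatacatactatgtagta
Gm29216, chr1:24616129-24616188, minus strand: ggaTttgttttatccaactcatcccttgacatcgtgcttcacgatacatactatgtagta
The other 13 models reached a mean of at most 61.9 TPM. Of these, Gm13339 (similar to mt-Nd2), Gm11410 (mt-Cytb) and Gm4076 (mt-Nd5) exceeded a mean of 20 TPM, at 61.9, 27.6 and 23.6.

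The deposited TPM were divided between gene and copy in different ways from library to library. mt-Co3, the third core subunit of cytochrome c oxidase, was listed at 0.03 TPM in young 1, where its copy Gm28437 had 3147 TPM. In the other 7 libraries mt-Co3 had 2038.5 to 5422 TPM, and the copy was at 0 in 6 of them and at 346 TPM in old 1. mt-Nd3 was listed at 0 in young 1, beside 717 TPM for Gm28438, and at 376 to 2423 TPM elsewhere. For mt-Nd4l the zeros fell on other libraries. It was at 0 in young 2 and old 2, where Gm10222 had 6573 and 5268 TPM. In the other 6 it had 3944 to 5991 TPM. Where the gene was at or near 0, its copy stood at the level of the pair in the remaining libraries. Some libraries held both entries, as young 3 with 5410 TPM for mt-Nd4l and 1360 TPM for Gm10222. The cause of the division was not tested.

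Adding gene and copy narrowed the spread over the 8 libraries for 6 of the 7 genes. The coefficient of variation went from 63.96% to 14.8% for mt-Nd4l, from 31.3% to 13.7% for mt-Atp6 and from 49.7% to 26.8% for mt-Co3. It went from 42.02% to 25.1% for mt-Co2, from 78.3% to 59.8% for mt-Nd3 and from 12.6% to 10.6% for mt-Co1. For mt-Nd4, whose copy is partial like that of mt-Co1, it was 15.3% alone and 17.3% summed. TPM are per length and were added without scaling, so sums with these partial copies depend on the split of the reads. All 7 copies together held 1.34% to 1.81% of non-ERCC TPM in young and 0.904% to 1.44% in old libraries.

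**Figure D2:**
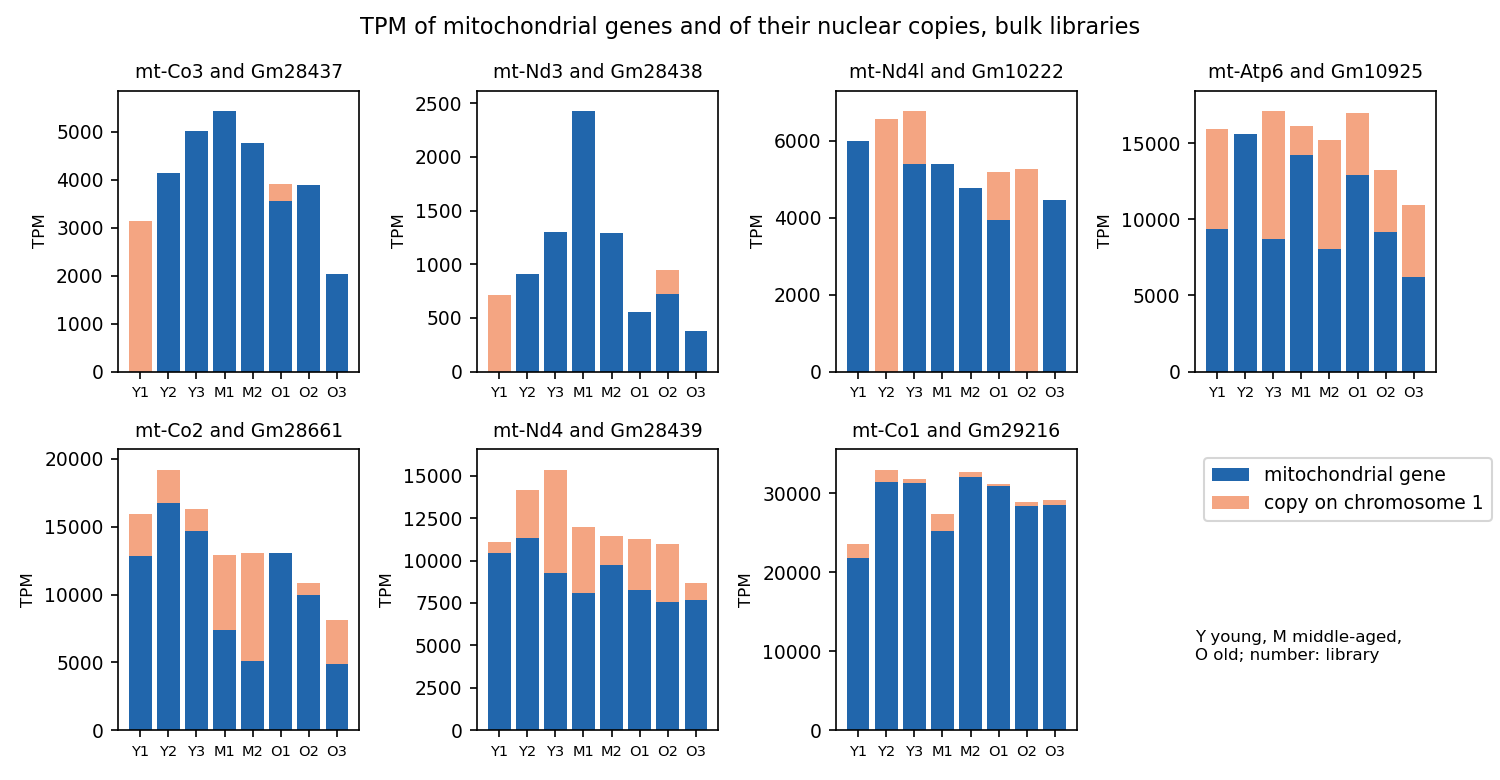
TPM (y axis) of 7 mitochondrial genes and, stacked on them, of their copies on chromosome 1, in each bulk library (x axis). In young 1 the whole bar of mt-Co3 and mt-Nd3 belongs to the copy, and in young 2 and old 2 the whole bar of mt-Nd4l.

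Old libraries were then compared with young ones gene by gene, with limma on log2(TPM + 1) over 22492 genes and all 8 libraries in one fit. No mitochondrial gene passed an adjusted p of 0.05 (0 of the 15 tested), and neither did any other gene (0%). At an unadjusted p under 0.05 there was 1 member, mt-Nd6, among 1325 genes, of which 3.72% of all genes tested were higher and 2.17% lower in old libraries. Of the 13 mRNAs, 10 were fitted lower and 3 higher, beside 45.8% and 49.6% of all genes. Their median log2 difference was -0.30, against 0 over all genes tested. For 5 mRNAs the old libraries all lay below the young ones, beside 4.16% of all genes tested. The opposite separation was found for 0 of the 13, beside 5.85% of all genes. Highly listed genes leaned the same way: of 100 other genes at a mean level of 500 TPM or more, 19% had all old libraries below all young ones and 70% were fitted lower, with a median of -0.27. The median and the direction of the mitochondrial mRNAs were thus near those of other abundant genes, and the larger share of separated groups was not tested.

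mt-Nd6, a complex I subunit and the only mRNA encoded on the other strand, had 6127, 6625 and 5557 TPM in the young libraries against 4383, 3948 and 3015 TPM in the old ones. Middle-aged libraries lay at 5003 and 3394 TPM. Every old library was below every young one, and the log2 difference was -0.70 (SE 0.25, 95% interval -1.26 to -0.15, adjusted p = 0.763 in limma). Within the mRNA total its share was 4.37% ± 0.427 in young and 3.17% ± 0.353 in old libraries (SD, n = 3 each). Since the use of strand in counting is not given, the mt-Nd6 TPM may hold RNA of the opposite strand.

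The other 6 complex I mRNAs encode membrane subunits of the NADH dehydrogenase. mt-Nd1 had 7717, 8593 and 9027 TPM in the young libraries against 7371, 7146 and 6027 TPM in the old ones, a log2 difference of -0.30 (SE 0.21). mt-Nd5 had 6794, 7837 and 9424 TPM in the young libraries against 6790, 5988 and 5502 TPM in the old ones (-0.39, SE 0.23). The lowest young and the highest old value nearly met. mt-Nd4 had 10447, 11309 and 9276 TPM in the young libraries against 8253, 7543 and 7651 TPM in the old ones (-0.40, SE 0.21). With its copy added without scaling for length, the groups of mt-Nd4 overlapped. Gm28439 is 876 bases long and mt-Nd4 is 1378, so this sum depends on the split of the reads. mt-Nd2 also overlapped, with a mean of 8975 ± 1815 TPM in the young libraries against 6845 ± 1562 TPM in the old ones (SD, n = 3 each). mt-Nd3 and mt-Nd4l had fitted differences of 2.33 (SE 2.10) and -0.29 (SE 3.57). In the libraries where they were listed at 0 the copy was above 0, and the cause was not tested. Summed with the copies the fitted differences became -0.70 (SE 0.38) and -0.37 (SE 0.19). The mt-Nd4l sums of 5991, 6573 and 6770 TPM in young did not overlap the 5203, 5268 and 4461 TPM in old libraries.

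mt-Cytb of complex III had 13765, 17108 and 14410 TPM in the young libraries against 11937, 11028 and 12361 TPM in the old ones. All old values were lower, with a log2 difference of -0.35 (SE 0.22, adjusted p = 0.839 in limma).

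The 3 complex IV mRNAs, the catalytic core of cytochrome c oxidase, did not move together. mt-Co1 was the mRNA with the highest mean TPM, though below mt-Atp8 in young 1 and old 1, at 28198 ± 5562 in young and 29316 ± 1392 in old libraries (SD, n = 3 each; log2 difference 0.08, SE 0.24). mt-Co2 had 12829, 16757 and 14679 TPM in the young libraries against 13092, 9947 and 4896 TPM in the old ones, which overlapped (-0.77, SE 0.35). The difference was -0.36 without old 3 and -1.07 without old 1. With Gm28661 added, mt-Co2 had 15926, 19201 and 16322 TPM in the young libraries against 13101, 10890 and 8090 TPM in the old ones. These sums did not overlap (-0.70, SE 0.22, unadjusted p = 0.00928, adjusted p = 0.708 in limma). mt-Co3 had a fitted difference of 3.46 (SE 2.51) that came from the 0.03 TPM of young 1. It was -0.58 without that library and -0.36 (SE 0.29) with the copy added.

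The 2 complex V mRNAs varied among the old libraries, with old 1 the highest for both. mt-Atp8 had 26683, 19817 and 17081 TPM in the young libraries against 31000, 14782 and 18748 TPM in the old ones. mt-Atp6 with its copy had 15931, 15614 and 17086 TPM in the young libraries against 16943, 13245 and 10944 TPM in the old ones. Both overlapped, with log2 differences of -0.02 (SE 0.31) and -0.26 (SE 0.21). mt-Atp8 is 204 bases long, the shortest of the mRNAs, and TPM of so short a gene depend on the length the quantification tool assigns to it.

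With all copies added, 12 of the 13 mRNAs were fitted lower in old libraries, the exception being mt-Co1 at 0.03, and the median difference was -0.37. The old libraries were all below the young ones for 6 of them: mt-Nd1, mt-Nd4l, mt-Nd5, mt-Nd6, mt-Cytb and mt-Co2. mt-Nd4 was separated as deposited but not in this sum, which adds a partial copy without scaling for length. The counts of 12 and 6 stand beside 45.8% of all genes fitted lower and 4.16% separated in that direction. Among the abundant other genes these were 70% and 19%. None passed the adjusted threshold in limma, and 2, mt-Nd6 and mt-Co2, had an unadjusted p under 0.05, beside 2.17% of all genes on the lower side. The complex I share with copies was 4.59% to 5.84% in young and 3.32% to 4.28% in old libraries. For 1 TPM of rRNA there were 0.584 to 0.684 TPM of mRNA with copies in young and 0.431 to 0.518 in old libraries.

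**Figure D3:**
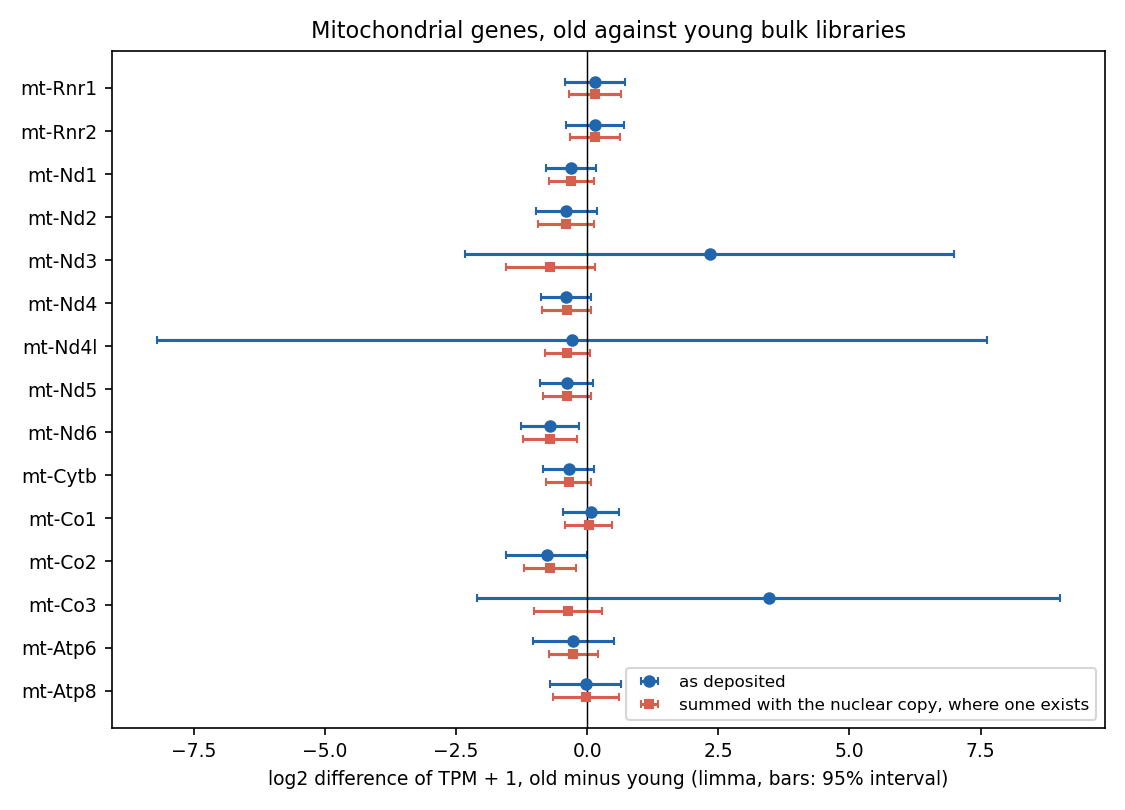
Old minus young log2 difference of TPM + 1 (x axis) for the 15 mitochondrial genes with values (y axis), as deposited and with the nuclear copy added, with 95% intervals from limma. The intervals of mt-Nd3, mt-Nd4l and mt-Co3 span several units as deposited and shrink when the copy is added.

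Marker genes of several other cell types also differed between the groups of libraries. The summed level of 11 Schwann cell markers lay at 84.7 to 168 TPM for young, at 184 and 398 for middle-aged and at 442 to 1444 in old ones. All 10 of the markers that could be tested were fitted higher in old libraries, and 4 of the 11 were at 0 in at least 1 library. Fibroblast markers summed to 1158 to 1433 TPM in the young libraries against 1526 to 2154 TPM in the old ones, with 8 of 10 fitted higher. Tenocyte markers, which mark tendon cells, summed to 15.2 to 32.2 TPM in young, 120.02 and 144.9 TPM in middle-aged and 70.6 to 100.6 TPM in old libraries. Endothelial markers summed to 24.8 to 40.7 TPM in young, 55.9 and 94.4 TPM in middle-aged and 41.8 to 70.8 TPM in old libraries. For both lists the young libraries were the lowest, with no overlap with the other ages, though the endothelial sums of young and old nearly met. Of the tested markers, 7 of 7 for tenocytes and 4 of 6 for endothelium were fitted higher in old than in young, beside 49.6% of all genes. Macrophage markers summed to 26.8 to 47.1 TPM in young, 77.97 and 115.3 TPM in middle-aged and 28.4 to 59.6 TPM in old libraries. Of 5 tested, 3 were fitted higher in old than in young libraries. Muscle fibre markers summed to 30.9 to 50.7 TPM in young and to 33.1 and 20.6 TPM in middle-aged libraries. In old 1, old 2 and old 3 they stood at 78.97, 29 and 107.6 TPM, and all 13 had a 0 in some library. Red blood cell markers summed to 43.8 to 85.4 TPM in young and 19.5 to 53.6 TPM in old libraries, which overlapped. Muscle stem cell markers summed to 2186 to 2636 TPM in the young libraries against 1421 to 2142 TPM in the old ones, without overlap. In middle-aged libraries they summed to 2344 and 1714 TPM. Of 10 tested, 8 were fitted lower in old than in young libraries, beside 45.8% of all genes, with a median log2 difference of -0.31. The part of any of these marker lists in the mitochondrial values was not tested.

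Middle-aged libraries were compared with young ones in the same fit. No mitochondrial gene was called, and 1 gene in 22492 was (0.00445%): Mapkapk3, a stress-activated kinase named here as the only call, which was 0 in every young library, 55.6 TPM at 12 months and 92.2 TPM at 13 months (adjusted p = 0.0498 in limma). Among members, mt-Co2 alone had an unadjusted p under 0.05, beside 2.28% of all genes on the lower side. It had 7411 and 5136 TPM in middle-aged libraries, below all young ones (log2 difference -1.25, SE 0.39, adjusted p = 0.406 in limma). Its copy Gm28661 stood at 5543 and 7919 TPM there, against 1643 to 3096 TPM in young libraries. The sums of gene and copy were 12954 and 13055 TPM, still below all young sums, and the difference went to -0.39 (SE 0.25, adjusted p = 0.626). mt-Nd6 was the other mRNA whose middle-aged libraries lay below all young ones (-0.56, SE 0.28), which makes 2 of 13 beside 5.37% of all genes tested. With copies added mt-Nd4l (-0.34, SE 0.22) joined them, which makes 3. The mRNA share was lower in both middle-aged libraries than in any young one (12.6% ± 0.182 against 13.99% ± 1.00; SD, n = 2 and 3; exact permutation p = 0.2, the smallest possible).

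Between old and middle-aged libraries no gene was called (0%) and no member as deposited had an unadjusted p under 0.05, of 1392 genes that did (2.34% higher and 3.85% lower). For 5 of the 13 mRNAs the old libraries were all below the middle-aged ones, beside 12.8% of all genes tested. These were mt-Nd1, mt-Nd2, mt-Nd3, mt-Nd4l and mt-Co3. With copies added, mt-Nd4l overlapped (-0.04, SE 0.22), mt-Nd4 did not (-0.19, SE 0.24), and the number was again 5. The mt-Nd4 sum depends on the split of the reads with its partial copy. The sums for mt-Nd3 had an unadjusted p of 0.00355 (log2 difference -1.60, SE 0.43, adjusted p = 0.522 in limma). They were 2423 and 1294 TPM in the middle-aged libraries and 554, 951 and 376 TPM in the old ones.

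The nuclear partners of these genes were read from lists of the transcription, processing, translation and respiratory chain genes. None of their tested members passed the adjusted threshold for old against young in limma. Of 11 genes of mitochondrial transcription and genome upkeep, 6 were fitted lower and 5 higher, with 2 lower at an unadjusted p under 0.05. Over all genes tested 45.8% were fitted lower and 49.6% higher, and 2.17% were lower and 3.72% higher at that p. The 2 genes were Ssbp1 and Tefm. Ssbp1, the single-stranded DNA binding protein of the mitochondrial genome, had 125, 173 and 225 TPM in the young libraries against 92.0, 27.8 and 42.03 TPM in the old ones (log2 difference -1.81, SE 0.47, unadjusted p = 0.00305, adjusted p = 0.577). Tefm, the elongation factor of mitochondrial transcription, had 7.42, 26.9 and 16.8 TPM in young libraries, was listed at 0 in old 1 and old 2 and had 3.98 TPM in old 3. Both genes were lower in every old library than in any young one, as were 4.16% of all genes.

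RNA processing and decay genes were evenly split, 11 fitted higher and 11 lower of 22, and 1 of them, Mrm1, a methyltransferase of the 16S rRNA, was lower at an unadjusted p under 0.05. Of 10 translation factors 6 were fitted higher, and of 6 nuclear regulators 5, none with an unadjusted p under 0.05. Of 34 nuclear subunits of complex I, 22 were fitted higher (49.6% of all genes), and 3 were higher at an unadjusted p under 0.05 (3.72% of all genes), among them Ndufb11 at 31.98, 0 and 7.26 TPM in the young libraries against 42.3, 46.2 and 35.1 TPM in the old ones. Their median difference was 0.26. That of the 7 mitochondrial mRNAs of complex I was -0.39, beside -0.27 for the other genes of at least 500 TPM. The summed share of the nuclear subunits was 0.0895% ± 0.00613 in young and 0.0899% ± 0.00475 in old libraries (SD, n = 3 each), which overlapped. Of the 34 nuclear genes, 20 had a 0 in some library. For complex III 7 of 9 nuclear subunits were fitted higher, none with an unadjusted p under 0.05. Their summed share was 0.0440% ± 0.0185 in young and 0.0403% ± 0.0152 in old libraries (SD, n = 3 each), which overlapped.

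Of 11 nuclear subunits of complex IV, 7 were fitted lower (45.8% of all genes), with a median of -0.65. Their summed share was 0.0783% ± 0.00266 in young and 0.0556% ± 0.00462 in old libraries (SD, n = 3 each), without a test. Cox4i1, a regulatory subunit of the oxidase, had 237, 286 and 201 TPM in the young libraries against 130, 126 and 118 TPM in the old ones (-0.93, SE 0.32, unadjusted p = 0.0150, adjusted p = 0.738). All old values of Cox4i1 were lower than all young ones. For complex V 10 of 17 nuclear subunits were fitted lower, and Atp5o, a stalk subunit of ATP synthase, was the 1 with an unadjusted p under 0.05 (-1.20, SE 0.51). The summed share of complex V was 0.223% ± 0.0229 in young and 0.246% ± 0.0650 in old libraries (SD, n = 3 each), which overlapped. Complex II, which has no mitochondrially encoded subunit, had 3 of 4 genes fitted higher, with a median of 0.08.

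In the single-cell wells the mitochondrial share was higher where few nuclear genes were found, a description of 2 measures from the same libraries. Wells were described in 2 classes, with at least 1000 nuclear genes at 1 TPM or more and with fewer. The close copies of mitochondrial genes were counted among these nuclear genes. Of the young wells 54 of 64 were in the fuller class (84.4%, 95% Clopper-Pearson interval 73.1% to 92.2%), and of the old wells 7 of 31 (22.6%, 9.59% to 41.1%). Since each age is 1 mouse, wells are not replicates, no test between ages was made, and the intervals cover counting error alone. Young and old wells had no i7 sequencing index in common, so age, mouse and index cannot be told apart.

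In the fuller wells the median mitochondrial share was 7.97% in young (range 3.27% to 33.7%) and 11.3% in old wells (6.42% to 16.5%). The old range lay inside the young one. In wells under 1000 genes it was 53.99% in 10 young wells (2.77% to 77.3%) and 65.0% in 24 old wells (0% to 79.6%). Over all wells the medians were 8.49% in young and 56.95% in old. The 2 ages differed in the number of wells in each class and in the median within each class.

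The nuclear copies weighed more here than in bulk. With the 7 copies added, the median share in fuller wells was 11.3% in young and 16.5% in old wells, and in wells under 1000 genes to 69.2% and 93.0%. Between the lower and upper quartile of those 24 old wells, mitochondrial genes and their copies made up 84.01% to 97.6% of all TPM outside the spike-ins. These wells held a median of 34 nuclear genes at 1 TPM or more, copies included. The rank correlation between share and number of nuclear genes was -0.61 over all 95 wells and -0.39 within the 54 fuller young wells (Spearman, a description; both measures come from the same library).

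**Figure D4:**
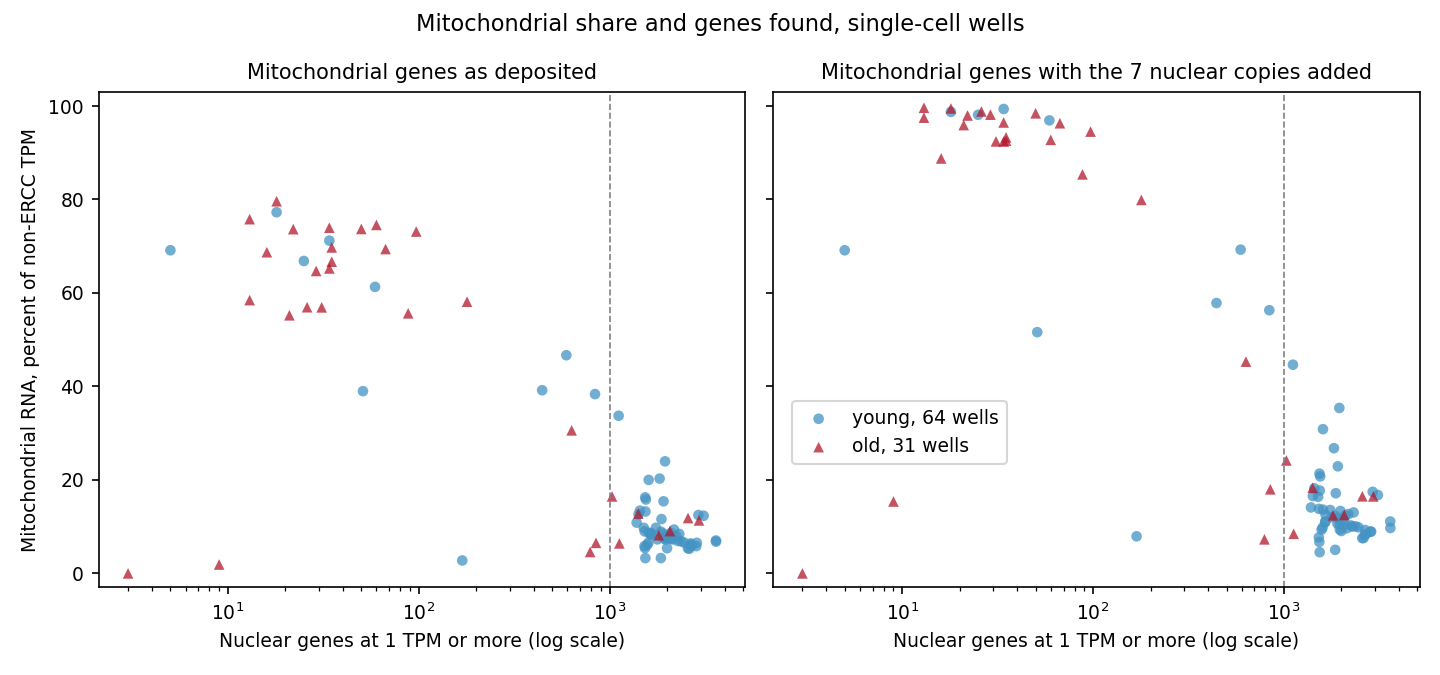
Mitochondrial share of non-ERCC TPM (y axis, percent) against nuclear genes at 1 TPM or more (x axis, log scale) for 64 young and 31 old wells, as deposited on the left and with the 7 nuclear copies added on the right; the dashed line marks 1000 genes. In both ages the wells with the highest shares have few nuclear genes, and most old wells sit at the upper left.

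Spike-ins gave a second scale, since their share of TPM was far higher where little cell RNA was found: a median of 64.3% in fuller young wells and 92.9% in the other young wells. Per 1000 TPM of ERCC, mitochondrial genes with copies had a median of 70.4 TPM in fuller young wells, 62.7 in fuller old wells, 47.7 in the other young wells and 24.2 in the other old wells. All remaining genes had 469, 430, 1.68 and 1.67 TPM in the same order. The low level of remaining genes in the second class follows from how the classes were defined. The entries of mitochondrial genes were not counted in that definition, but their 7 copies were. The limit of 1 TPM also applies to TPM whose total holds mitochondrial and ERCC RNA. Pax7, the defining factor of these cells, was at 1 TPM or more in 38 of 54 and 5 of 7 fuller wells, but in 1 of 10 and 1 of 24 of the others. At least 1 of the 10 muscle stem cell markers was found in 53 of 54, 7 of 7, 3 of 10 and 6 of 24 wells. Whether wells under 1000 genes held a damaged cell, part of a cell or free RNA was not tested.

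**Figure D5:**
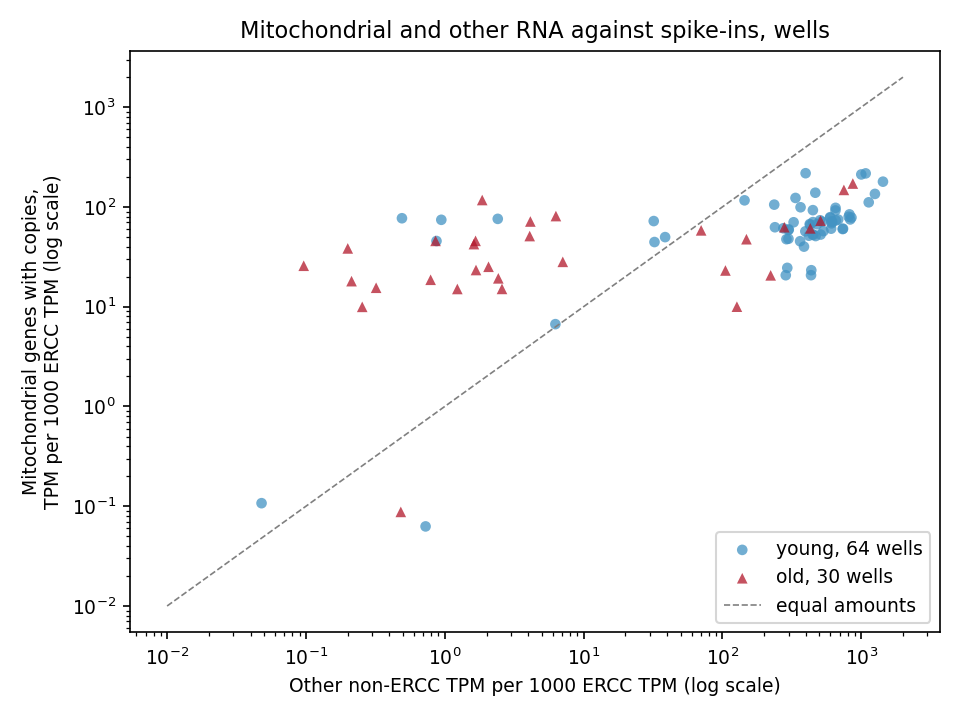
TPM of mitochondrial genes with their copies (y axis) against TPM of all other genes (x axis), both per 1000 TPM of ERCC spike-ins on log scales, for 64 young and 30 old wells; 1 old well with no mitochondrial TPM is not drawn. Wells above the dashed line hold more mitochondrial than other RNA, and in most wells the other RNA varies over a far wider range than the mitochondrial RNA.

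The make-up of mitochondrial RNA differed between the formats. In fuller wells rRNA was a median 1.05% (young) and 1.37% (old) of non-ERCC TPM, where every bulk library had at least 19.9%. For 1 TPM of rRNA these wells had 6.87 and 5.59 TPM of mRNA, where bulk libraries had 0.395 to 0.638. The ratio of 12S to 16S was 0.192 and 0.159 in the wells, and at least 1.13 in bulk. How the wells were amplified is not given separately in the labels, and format, mouse and protocol cannot be told apart.

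Among mRNAs, the order of levels per length also differed, with copies added in both formats. In bulk young libraries mt-Co1 led with 18.9% of mitochondrial mRNA TPM, before mt-Atp8 with 13.8%, mt-Co2 with 11.01% and mt-Atp6 with 10.4%. In fuller young wells mt-Co3 led with a median of 21.8%, before mt-Co1 with 18.4%, mt-Atp6 with 18.2% and mt-Co2 with 11.5%. mt-Co3 was thus near the end of the bulk order, at 2.62% ± 0.483 (SD, n = 3), and first in the wells. In old wells it was also first, at 22.6%. The complex I mRNAs mt-Nd5 and mt-Nd2 went the other way, from 5.13% and 5.74% in bulk young libraries to 0.644% and 1.25% in the wells. These values are set side by side without a test, and the 2 tables were scaled separately. The mt-Co1 sum depends on the split of its reads, since Gm29216 matches 483 of its 1545 bases and TPM are per length. Without copies the order in fuller young wells was another, with medians of 26.4% for mt-Atp6, 13.7% for mt-Co1 and 3.31% for mt-Co3.

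The split of a pair leaned to one entry in most wells for some genes. Gm28437 held more than 50% of the summed TPM of mt-Co3 in 54 of 54 fuller young and 7 of 7 fuller old wells. Its part in the young ones had a median of 89.8% and ran from 54.7% to 100%. mt-Nd4l was at 1 TPM or more in 3 of 64 young and 1 of 31 old wells, its copy Gm10222 in 49 and 21. The copies of mt-Nd4 and mt-Atp6 behaved in the opposite way, with a median of 0% and 0% of the pair in fuller young wells, where bulk libraries gave them a median of 23.6% and 35.8%. Gm29216 took a median of 48.2% of the mt-Co1 pair in fuller young wells and 1.99% in bulk. A reading of mt-Co3 or mt-Nd4l in these wells by the mitochondrial entry alone would leave out most of the TPM of the pair.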

How the data were processed

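Both tables hold TPM as deposited by the authors. STAR and mm10 are named in the submitters' processing notes. Not given in the sources used here were the aligner's version, the annotation, the use of strand, the handling of reads with several positions and the tool behind the TPM. The tables held 0 columns of no sample. Gene positions and transcripts came from GENCODE vM21 (mm10), and nuclear models were matched to mitochondrial genes with blastn 2.17.0.

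The fit used limma 3.58.1 (R 4.3.3) for bulk genes averaging 1 TPM or more, on log2(TPM + 1) with a pseudocount of 1, all 8 libraries together with a variance trend, and Benjamini-Hochberg adjustment over the 22492 genes of a comparison. The script was tested on simulated data. Shares were compared with exact two-sided permutation tests (scipy 1.17.1). Python 3.11.15, pandas 2.3.3, numpy 2.4.6 and matplotlib 3.10.9 were used. Each bulk library is a separate mouse per the design text.

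The members, gene lists and tests were chosen with earlier results of these data known. All mitochondrial genes could be named, with at most 4 genes of a nuclear list (the smallest p values) and nuclear models averaging 20 TPM or more. Summing genes with their copies, the genes of at least 500 TPM and the wells under 1000 genes were added after the data were seen. Other identifiers (2423 entries with neither an Ensembl nor an ERCC name) entered the totals only.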

Additional observations from a re-analysis of the deposited data

How the results depend on the processing

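No mitochondrial gene was called in any comparison under any of the alternatives run in limma, and 0 genes were called for old against young (1325 at an unadjusted p under 0.05). The single call for middle-aged against young became 7 with a pseudocount of 0.1, 0 with 5, 2 with a mean of at least 5 TPM, 12 without the variance trend, and 0 without a filter, with totals that leave out mitochondrial genes, with the replicate block, with copies summed and among genes of at least 500 TPM. Leaving out libraries gave 0 to 884, and 0 to 799 for old against middle-aged, which had 6 at a pseudocount of 0.1. The high counts come from the settings without a middle-aged library (599 without 1 and 884 without 2, 557 and 799 against old), where the lone library is assumed to vary like the other groups.

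Replicate numbers did not pair the libraries: same-numbered libraries correlated at -0.012 to 0.005 after removal of group means. In the replicate block the complex I share difference of middle-aged against young was 0.00190 percentage points, and as a share of mitochondrial RNA it was 0.0950, both of opposite sign to the main value of -0.226. The block called no mitochondrial gene. The complex V difference of old against young was 0.0475 with no mitochondrial rRNA in the denominator.

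Leaving out 1 library at a time gave differences of -2.55 to 3.07 percentage points for all mitochondrial RNA and -0.794 to 0.202 for complex V (old against young). For middle-aged against young it gave -6.06 to 3.48 for all mitochondrial RNA, -4.80 to 5.00 for rRNA and -0.463 to 0.0105 for complex I. Log2 differences of old against young ran from -0.10 to 0.17 for mt-Co1, -0.32 to 0.21 for mt-Atp8, -0.52 to 0.0075 for mt-Atp6, -0.58 to 5.54 for mt-Co3, -1.03 to 4.14 for mt-Nd3 and -4.45 to 3.72 for mt-Nd4l. With copies summed mt-Co3 was -0.36 and mt-Nd3 -0.70, and mt-Atp8 was 0.0019 with totals that leave out mitochondrial genes. Complex I and III shares, mt-Nd1, mt-Nd4, mt-Nd5, mt-Nd6 and mt-Cytb stayed below young in old libraries under all alternatives run.

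The median share in old wells was 11.3% in wells of at least 1000 genes and also 11.3% in the 1 well with at most 50% ERCC, 1.98% of all TPM with ERCC and 92.4% with copies. In young wells under 1000 genes it was 53.99%. The cause of these shifts was not tested. Shares that include rRNA were not run without rRNA in the denominator, and the total was not run as a share of itself. TPM keep no read depth, so low values carry no counting error here.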
